A study of Mus musculus with 25 samples.

Results

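Macrophages sorted from the injured mouse spinal cord at 10 days after injury were compared with macrophages sorted at 2 and 3 days. The cells are those that carry the macrophage code in the deposited cell annotation, and their raw counts were summed in each library. A library entered the comparison when it came from the infiltrating or the mixed sort and held 20 or more such cells. This gave 4 libraries at day 10 (D10) and 5 at days 2 and 3 pooled (D2-3), 9 of the 25 libraries of the series. They held 786 and 5832 macrophages, 6618 of the 12841 macrophages and of the 30958 cells of all kinds in the series.

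The series profiled single myeloid cells from a 5 mm segment of injured cord with 10x Genomics 3′ libraries, each from the tissue of 1 to 3 mice. The infiltrating libraries came from Cx3cr1CreERT2:R26tdTomato mice and hold cells sorted as positive for yellow and negative for red fluorescence (RFP-/YFP+). The mixed libraries came from Cx3cr1CreERT2 mice, which are not labelled with the red reporter, and hold all YFP+ cells, resident and infiltrating together. Every mouse thus carried a Cre inserted at Cx3cr1, a gene that microglia and many monocytes both use, and the sort cannot be told apart from the strain. The D2-3 group held D2 infiltrating 1 (female), D2 mixed 1 (female), D2 mixed 2 (male), D3 infiltrating 1 (male) and D3 mixed 3 (male), and the D10 group held D10 infiltrating 1 (female), D10 infiltrating 2, D10 mixed 1 and D10 mixed 2 (all male). All had spinal cord injury. The labels give no age.

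Monocytes enter an injured cord from the blood within days and become macrophages there, which clear blood, myelin and dead cells. Early cells of this kind are known for chemokines that draw in more monocytes, heme breakdown and glycolysis. Cells that have taken up myelin are known for lipid droplets, lysosomal enzymes, apolipoproteins and cholesterol export.

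The macrophages were not equally many or equally deep in all libraries, and 2 things stood apart before any gene was compared. Macrophages per library ran from 69 to 3019 at D2-3 and from 53 to 549 at D10, with 418583 to 22068469 and 604811 to 4035558 counted transcripts (UMIs) in the sums. Median UMIs per macrophage were 1762 in D2 mixed 1 and 6852 to 12253 in the other D2-3 libraries, against 3441 to 7380 at D10. The authors' clusters of these cells also differed: cluster 11 held 44.9% to 59.4% of the macrophages in 4 early libraries, 1.59% in D3 mixed 3 and a median of 0.364% at D10, while cluster 3 held a median of 41.9% at D10 and 0% at D2-3. Of all cells in cluster 3, 90.5% carry the microglia code, although those counted here carry the macrophage code. D3 mixed 3 had 88.6% of its macrophages in cluster 9 and resembled D10 infiltrating 1, with 78.7%, more than the other early libraries. D2 mixed 2 and D3 mixed 3 also held few microglia for mixed libraries, 3.05% and 14.4% of their cells, against 87.3% to 94.9% in the other mixed ones. A sum over cells cannot tell a change in each cell from a change in which cells are present, including fewer cells of a kind from less RNA in each. The sequencing pools named in the deposited annotation also divide by date, 3 for D2-3 and 2 for D10 with 0 in common, and their part cannot be told apart from that of time. The 9 libraries held 11682 barcode sequences, of which 19 occurred in more than 1 library.

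**Figure D1:**
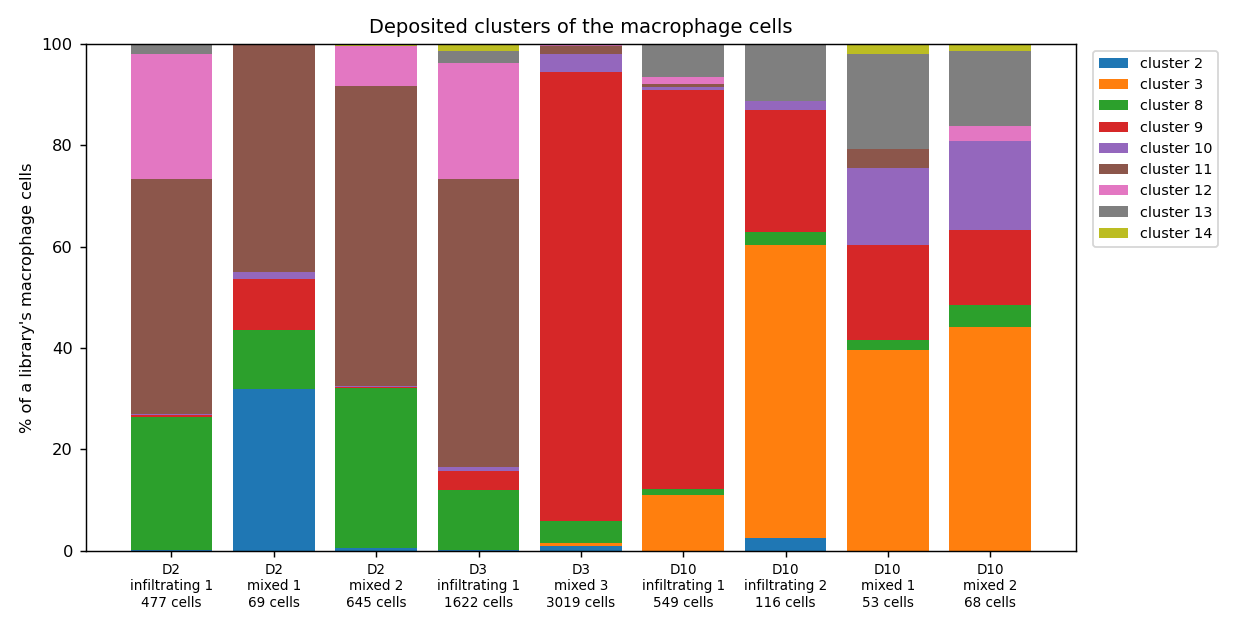
Share of each library's macrophage cells (%, vertical axis) in the authors' clusters, with the number of macrophages under each bar. Cluster 11 holds 44.9% to 59.4% of 4 of the 5 early libraries and cluster 3 appears at D10, while D3 mixed 3 is mostly cluster 9 (88.6%).

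Of 8577 genes tested with edgeR's quasi-likelihood test, 879 passed a Benjamini-Hochberg adjusted p of 0.05, 10.2% of those tested. They split into 429 higher at D10 (5.00%) and 450 lower at D10 (5.25%), and the median log2 change of all genes was -0.01. In 1072 genes (12.5%) the CPM (counts scaled to a common, normalised library size) of the 4 D10 and the 5 D2-3 libraries did not overlap, 474 higher at D10 (5.53%) and 598 lower (6.97%). No gene passed between D3 and D2 in edgeR or in DESeq2 (0% of 8577), with 146 and 182 genes at an unadjusted p below 0.05, so the 2 pooled days gave no called difference with 2 and 3 libraries. The count of 879 fell to 357 without D2 mixed 2, to 397 without D10 mixed 1 and to 459 without D10 mixed 2, the other 6 omissions giving 613 to 1145. Replicates are libraries of 1 to 3 mice, and the labels do not say which libraries share mice.

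Among the genes chosen by the naming rule, 70 passed the test and 44 of these passed in each of the 9 fits that left out 1 library. Those that passed under every alternative in which they were tested included Adam8, C5ar1, Ccl2, Ccl7, Cd36, Ctsk, Hmox1, Msr1, Nr1h3, Plin2, Rhov, Tgm2, Thbs1, Tmem176a and Tmem176b.

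The monocyte-attracting chemokines Ccl7 and Ccl2 were lower in macrophages at D10, where Ccl7 was counted in 1 of 4 libraries and Ccl2 in all 4. Ccl7 (chr11:82045712-82047525) and Ccl2 (chr11:82035571-82037453) are neighbouring genes whose products both bind the monocyte receptor CCR2. Ccl7 was at 1478, 725, 1871, 622 and 378 CPM in D2 infiltrating 1, D2 mixed 1, D2 mixed 2, D3 infiltrating 1 and D3 mixed 3, an order kept for all early values. At D10 it was at 9.23 CPM in infiltrating 1 and at 0 in infiltrating 2, mixed 1 and mixed 2, the order kept for D10 values, where a count of 0 allows up to 5.20, 4.51 and 3.20 CPM (log2 change -8.17, SE 0.89, edgeR adjusted p 0.000255). Ccl2 was at 4575, 1755, 3215, 1568 and 450 CPM early and at 50.1, 62.4, 9.01 and 19.2 at D10 (-5.98, SE 0.80, edgeR adjusted p 0.000776). No D10 value of either gene came near the early range. Pf4, a chemokine known from platelets and border macrophages, fell from 171 to 1228 CPM to 16 to 39.9 (-4.95, edgeR adjusted p 0.00462). These 3 were the chemokines called of 17 tested, where 5.25% of all genes fell. None rose, and the list's median log2 change was -2.47 against -0.01 over all genes; without D3 mixed 3 the number called was 6. CCR2 itself did not pass: Ccr2 had 7.39 to 449 CPM early and 90.6 to 457 at D10 (0.50, edgeR adjusted p 0.825).

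**Figure D2:**
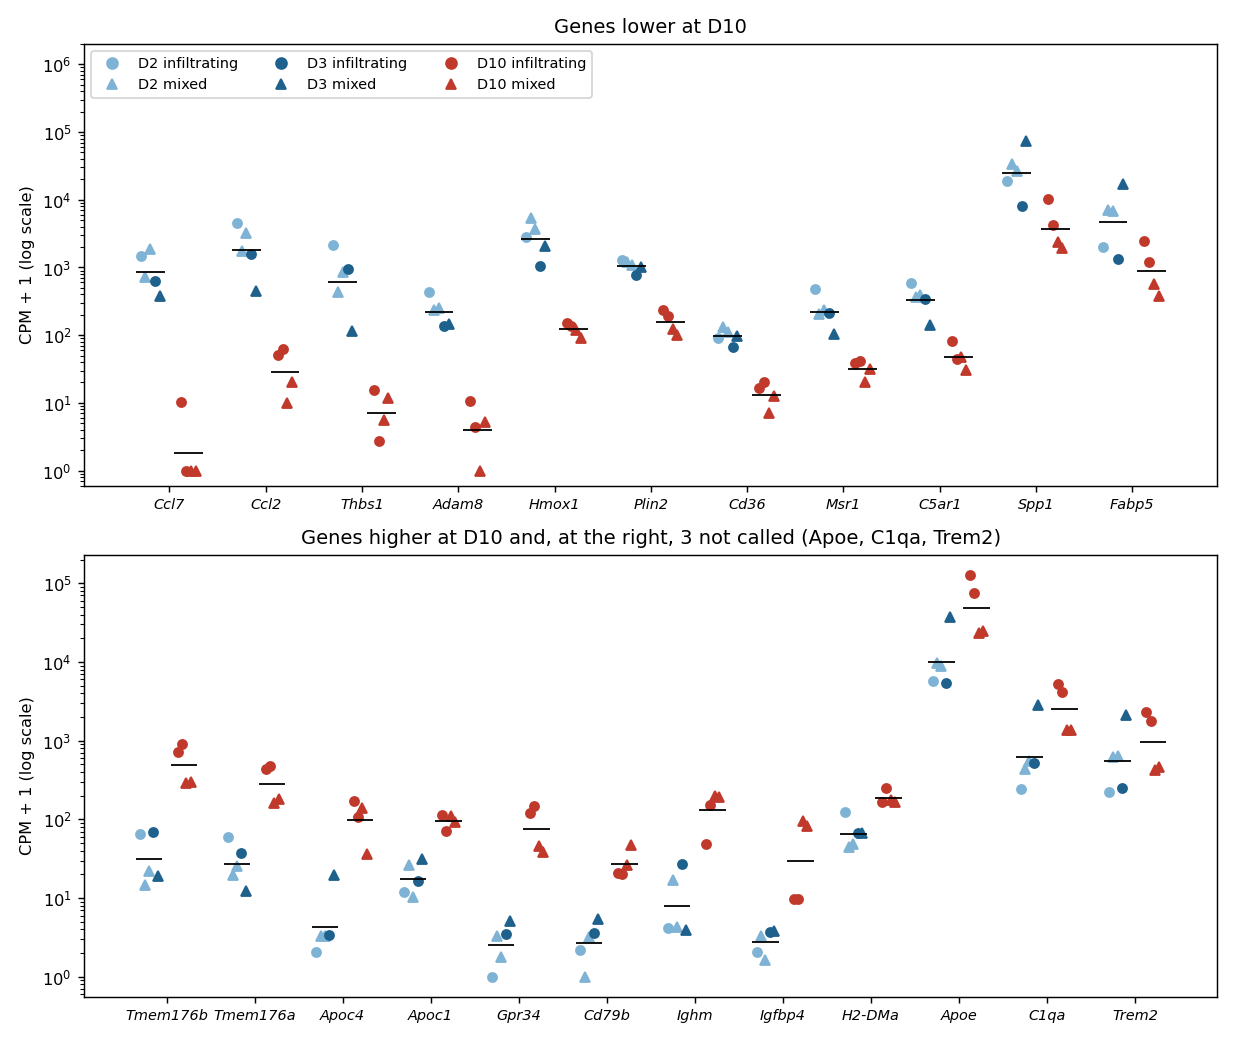
CPM + 1 on a log axis for 23 genes, with 1 point per library (circles infiltrating, triangles mixed), D2 and D3 in blues on the left of each gene and D10 in red on the right; bars are means of the log values. In the upper panel Ccl7 sits at 0 in 3 D10 libraries and at 9.23 CPM in the other, while Spp1 and Fabp5 overlap between the groups; in the lower panel Tmem176b and Gpr34 are separate and Apoe, C1qa and Trem2 overlap, with D3 mixed 3 the highest early library in each.

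Of 22 genes of alternative activation and growth factors, 16 were tested, 5 fell and none rose (median -0.93), where 5.25% of all genes fell and 5.00% rose. Those that fell included Tgfbi, a secreted adhesion protein induced by TGF-beta (-2.06, edgeR adjusted p 0.00986), Il4ra, the interleukin 4 receptor (-1.37, 0.0216, lost without D2 mixed 2, D10 infiltrating 1, D10 mixed 1 or D10 mixed 2), and Vegfa, the endothelial growth factor (-3.35, 0.0239). Vegfa was called in 3 of 9 fits that left out 1 library, with adjusted p up to 0.0692 without D2 infiltrating 1, D3 infiltrating 1 or any D10 library. The 5 fell to 2 or 3 when any 1 of 7 libraries was left out, all but D2 mixed 1 and D3 mixed 3. The number called higher was 2 without D3 infiltrating 1 and 1 without D10 infiltrating 1. Chil3, a classical marker of this state, had 427 to 2607 CPM early and 72.4 to 1131 at D10 (-1.53, edgeR adjusted p 0.252), and Igf1 had 7.59 to 154 and 51.2 to 174 (0.92, edgeR adjusted p 0.506).

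Genes of the matrix, of coagulation and of proteases were often lower at D10: 10 of 23 tested members were lower and none was higher, against 5.25% and 5.00% of all genes, with a median log2 change of -1.58. Thbs1, which encodes the matrix glycoprotein thrombospondin 1, was at 2164, 433, 865, 940 and 116 CPM early and at 14.3, 1.73, 4.51 and 10.7 at D10 (-6.62, SE 0.94, edgeR adjusted p 0.00099). Adam8, a membrane metalloprotease of leukocytes, was at 439, 235, 252, 135 and 143 CPM and at 9.79, 3.47, 0 and 4.27 (-5.49, SE 0.62, edgeR adjusted p 0.000315). In both genes every early library was above every late one, and the lowest early value of Thbs1 came from D3 mixed 3.

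F7, coagulation factor VII, fell from 39.2 to 170 CPM to 0 to 7.47 (-4.14, edgeR adjusted p 0.000844), and Tgm2, a protein cross-linking transglutaminase, from 49.3 to 273 to 13.9 to 29.6 (-2.82, edgeR adjusted p 0.00322). Timp1, an inhibitor of matrix metalloproteases, fell from 11.5 to 111 CPM to 0 to 5.03 (-4.64, edgeR adjusted p 0.00626). Sdc1, the heparan sulfate proteoglycan syndecan 1, had 2917 UMIs early and a single one at D10, a ratio of 304 per normalised library (95% counting interval 54.5 to 12002). Its fitted log2 change over libraries was -8.22 (SE 1.49, edgeR adjusted p 0.00462), and it did not pass in the mixed libraries alone (-5.95, 0.0759). Outside the lists, Gpat3, an enzyme of triglyceride synthesis (-4.57), and Rhov, a small GTPase (-4.51), were among the 12 largest falls with edgeR adjusted p of 0.0074 and 0.000862. Fn1, fibronectin, did not pass, at 109 to 2201 CPM early and 100 to 309 at D10 (-1.97, edgeR adjusted p 0.0883), and passed without D3 mixed 3 (-2.42, 0.0166). Without D2 mixed 2, D10 infiltrating 1 or D10 mixed 2 the number of fallers in the list was 6.

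Spp1, which encodes osteopontin and was the most abundant transcript of this list, was at 19135, 33905, 26599, 7975 and 74146 CPM early and at 10191, 4192, 2403 and 1923 at D10. The groups overlapped, since D10 infiltrating 1 was above D3 infiltrating 1. The log2 change was -2.99 (SE 0.86, edgeR adjusted p 0.0394), and it was called in 3 of the 9 fits that left out 1 library, not without D2 mixed 2, D3 mixed 3 or any D10 library (adjusted p up to 0.117).

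Genes for heme breakdown, iron and the antioxidant response were often lower at D10, 11 of 24 tested members (against 5.25% of all genes), with 1 higher (5.00%) and a median of -1.31. Hmox1 (chr8:75093621-75100589), heme oxygenase 1, which splits heme into iron, carbon monoxide and biliverdin, was at 2793, 5469, 3730, 1036 and 2071 CPM early and at 148, 135, 119 and 90.7 at D10. The 4 late libraries were within a narrow band and all below the lowest early one (-4.44, SE 0.47, edgeR adjusted p 0.000255). The D1 libraries held 1503 to 3860 CPM and the D21 libraries 68.8 to 267.

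Slc7a11, the cystine importer that feeds glutathione synthesis, fell from 11.6 to 305 CPM to 0 to 7.47 (-4.72, edgeR adjusted p 0.0132), a call lost without D10 infiltrating 1 (0.0526). Gclm, a subunit of the enzyme that makes the glutathione precursor, fell from 182 to 495 CPM to 47.5 to 81.1 (-2.0, edgeR adjusted p 0.0117). Prdx6, a peroxiredoxin, fell from 469 to 977 CPM to 113 to 232 (-2.06, 0.00291), and Txnrd1, thioredoxin reductase, from 149 to 290 to 45.9 to 78.1 (-1.83, 0.0118). Hfe, a regulator of iron uptake, was the member that rose (1.44, edgeR adjusted p 0.0396), and was called in 1 of 9 fits that left out a library, that without D3 mixed 3. The number lower was 6 without D2 mixed 2 and 5 without D10 mixed 1 or D10 mixed 2. It was 4 against D2 alone, where 254 of all 8577 genes fell, and 1 against D3 alone, where 50 fell.

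Glycolysis and hypoxia response genes were often lower at D10, 12 of 27 tested members (against 5.25% of all genes), and none was called higher (5.00%), with a median of -1.25. The early and late values of Pkm, the last enzyme of glycolysis, were 1715, 1748, 1446, 803 and 1813 CPM against 269, 343, 514 and 619 (-1.78, SE 0.35, edgeR adjusted p 0.00701). Aldoa, the aldolase, was at 735 to 1926 CPM early and 390 to 607 at D10 (-1.42, 0.0117), Tpi1, triose phosphate isomerase, at 311 to 733 and 162 to 262 (-1.49, 0.0117), and Pfkl, a phosphofructokinase subunit, at 86.5 to 146 and 27.7 to 56.8 (-1.25, 0.0117). These 4 pathway enzymes did not overlap between the groups and kept their calls in all 9 fits that left out 1 library. Slc2a1, the glucose transporter GLUT1, was at 169, 46.1, 52.8, 65.7 and 31.2 CPM and at 21.3, 20.8, 22.5 and 19.2 (-1.65, SE 0.45, edgeR adjusted p 0.0321); it was called in 3 of those 9 fits, those without D2 infiltrating 1, D2 mixed 1 or D3 mixed 3. Without D10 infiltrating 1 or D10 infiltrating 2 the number of fallers was 6, and without D10 mixed 2 it was 7. With the mixed libraries alone it was 3 (against 4.91% of all genes) and with the infiltrating libraries alone 5 (1.69%). Against D3 alone it was 0, where 50 of all 8577 genes fell.

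The core of the hypoxia response element, ACGTG on either strand, was searched in the 250 bases before the RefSeq starts of these genes (build GRCm38.p6), since 12 of the list's 27 tested members fell. Cited2 (0.95, edgeR adjusted p 0.0675), Hk2 (0.36, 0.504) and Gpi1 (0.26, 0.623) had changes above 0, for which they are named, and did not pass. The core was in 9 of the 12 that fell (75%), in 16 of 25 list members tested with a RefSeq start (64%), in 26.5% of 6932 tested genes and in 18.5% of all 27025 genes with a start. A match of this length is a description of the letters and not evidence of a bound factor. The 8 matches with 12 bases on both sides inside the window are printed 5′ to 3′ on the gene's strand, with the core or its reverse complement in capitals; Hilpda, Ldha, Pgam1 and Slc16a3 were chosen after their values were seen, for holding it.
Slc2a1, chr4:119108697-119108725, + strand: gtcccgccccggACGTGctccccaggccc
Aldoa, chr7:126799364-126799392, - strand: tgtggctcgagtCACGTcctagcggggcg
Pgam1, chr19:41911745-41911773, + strand: cgctccttgcttACGTGcgctccgtgact
Pkm, chr9:59657140-59657168, + strand: ctccgatccggtCACGTccgcgccgcagc
Ldha, chr7:46845758-46845786, + strand: cgtgggttcccgCACGTccgctgggctcc
Slc16a3, chr11:120949028-120949056, + strand: caggcagcggtgACGTGcgcgggggacgt
Vegfa, chr17:46025358-46025386, - strand: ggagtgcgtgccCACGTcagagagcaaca
Hilpda, chr6:29272571-29272599, + strand: gatggccagcggACGTGccccagggcgag
The core began 27 bases before the start in Slc16a3, 34 in Ldha, 36 in Slc2a1 and 43 in Hilpda, and 75 to 211 bases before it in Pkm, Pgam1, Aldoa and Vegfa. The second core searched, GCGTG, was in 8 of the 12 (66.7%) and in 51.8% of tested genes.

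Lipid genes passed in both directions. Among those that fell, Plin2, the coat protein of lipid droplets, was at 1278, 1211, 1093, 770 and 1009 CPM early and at 235, 194, 123 and 100 at D10 (-2.67, SE 0.37, edgeR adjusted p 0.000844). Cd36, a receptor for oxidised lipoproteins and fatty acids, was at 65.9 to 131 CPM early and 6.01 to 19.1 at D10 (-2.87, 0.00119). Msr1, the class A scavenger receptor, was at 102 to 484 and 19.5 to 39.9 (-2.83, 0.00204). Nr1h3, the oxysterol-sensing nuclear receptor LXR alpha, was at 36.9 to 67.7 and 4.51 to 10.1 (-2.96, 0.00384). None of these 4 overlapped between groups. Other scavenger receptors of the list, named after their values were seen, did not pass, with changes of -2.07 for Olr1 (edgeR adjusted p 0.172) and 0.60 for Scarb1 (0.403).

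Apoc4 and Apoc1, apolipoprotein genes beside Apoe, rose. Apoc4 (chr7:19678083-19681479) was at 1.04, 2.30, 2.30, 2.43 and 18.8 CPM early and at 168, 106, 140 and 35.2 at D10 (4.11, SE 0.78, edgeR adjusted p 0.00598). Apoc1 (chr7:19689481-19692660) was at 11, 25.3, 9.21, 15.2 and 30.1 CPM and at 113, 71.0, 108 and 90.7 (2.45, SE 0.63, edgeR adjusted p 0.0234), a call lost without D2 mixed 2, D10 mixed 1 or D10 mixed 2 (up to 0.0741). Both genes were separate between the groups, with D3 mixed 3 the highest early library in each. Apoe (chr7:19696109-19699188), the main lipoprotein of macrophages and glia, was at 5709, 9635, 8866, 5374 and 37157 CPM and at 126391, 75427, 23088 and 25092, so that D3 mixed 3 exceeded both mixed D10 libraries. Its log2 change of 2.13 (SE 0.67) did not pass with all libraries of the fit (edgeR adjusted p 0.056) and was 3.1 (0.00211) without D3 mixed 3.

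Of 25 lipid genes tested, 6 fell (against 5.25% of all genes) and 2 rose (5.00%), with a median of -0.25; without D2 mixed 2, D10 mixed 1 or D10 mixed 2 the number that rose was 1. Fabp5, a fatty acid carrier named in the title of the series, was at 2011, 7017, 6836, 1336 and 17231 CPM early and at 2472, 1213, 560 and 382 at D10. Its groups overlapped and its call (-2.77, SE 0.81, edgeR adjusted p 0.0419) was lost without D2 mixed 2, D3 mixed 3, D10 infiltrating 2, D10 mixed 1 or D10 mixed 2 (up to 0.125). Fabp4 had 34.2 to 583 and 14.9 to 88.9 CPM (-2.49, edgeR adjusted p 0.0795), Gpnmb, a glycoprotein of lipid-laden macrophages, 226 to 5846 and 307 to 2121 (-1.11, 0.413), Lpl, lipoprotein lipase, 24.5 to 117 and 55.5 to 90.9 (0.25, 0.899), and Trem2, a lipid-sensing receptor, 222 to 2146 and 426 to 2335 (0.60, 0.628). Apoc2 was below the expression filter and was not tested.

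Of 32 lysosomal genes tested 5 fell, where 5.25% of all genes fell, none rose and the median was -0.43. Ctsk, cathepsin K, was the largest, at 23.1, 59.9, 66.8, 22.9 and 39.7 CPM early and at 0.839, 1.73, 0 and 0 at D10 (-5.90, SE 0.89, edgeR adjusted p 0.00142). Ctsl, cathepsin L, fell from 711 to 3144 to 248 to 732 (-2.44, 0.02), with an overlap of 1 library on each side and no call without D2 mixed 2, D10 mixed 1 or D10 mixed 2. Gla, alpha-galactosidase, fell from 93.3 to 237 to 24 to 64.9 (-2.09, 0.0119), and Atp6v1a, a subunit of the proton pump, from 156 to 288 to 78.1 to 137 (-1.08, 0.0142), a call lost without D2 mixed 2 or D10 mixed 1. Ctsd, cathepsin D, had 2500 to 18547 CPM early and 1895 to 9406 at D10 (-0.75, edgeR adjusted p 0.468), and Cd63, a lysosomal tetraspanin, 458 to 3117 and 402 to 2147 (-0.62, 0.559). The 5 became 8 without D2 infiltrating 1, 2 without D2 mixed 2 or D10 mixed 1, and 3 without D10 mixed 2. Without D3 mixed 3, 1 member was called higher. With the mixed libraries alone 15 fell (against 4.91% of all genes) and none rose, and with the infiltrating libraries alone 1 fell (1.69%) and 2 rose (1.40%).

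TCACGTGA, the core of the CLEAR element found before many lysosomal genes (it holds ACGTG), was in the 250 bases before 2 of the 4 fallers with a RefSeq start, in 5 of 25 tested list members (20%), in 2.12% of tested genes and in 0.907% of all genes with a start. One of them holds it 2 times, and the 3 matches are printed with 10 bases on each side, 5′ to 3′ on the gene's strand and the core in capitals.
Gla, nearer match, chrX:134601183-134601210, - strand: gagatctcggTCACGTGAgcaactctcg
Gla, farther match, chrX:134601216-134601243, - strand: aagcgattgaTCACGTGAgcatctacgt
Atp6v1a, chr16:44139374-44139401, - strand: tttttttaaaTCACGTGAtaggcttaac

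Tmem176a and Tmem176b, neighbouring genes for a pair of related membrane proteins of macrophages and dendritic cells, rose, and passed under all 32 alternatives. Tmem176b was at 64.9, 13.8, 21.0, 68.9 and 17.9 CPM early and at 719, 894, 290 and 299 at D10 (3.88, SE 0.52, edgeR adjusted p 0.000748). Tmem176a was at 59.2, 18.4, 24.4, 36.3 and 11.3 CPM and at 439, 480, 162 and 181 (3.48, SE 0.41, edgeR adjusted p 0.0004). Each D10 library exceeded every early one, the 2 infiltrating D10 libraries being the highest, and the D21 libraries were at 811 to 939 and 443 to 607 CPM. The annotated genes overlap (chr6:48833818-48841496 for Tmem176b, chr6:48840919-48847071 for Tmem176a), and how the counting treated strand is not given in the sources used here, so reads from the shared stretch cannot be told apart.

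Gpr34, a receptor for lysophosphatidylserine known mainly from microglia, was at 0, 2.30, 0.767, 2.51 and 4.12 CPM early and at 120, 147, 45.1 and 37.3 at D10 (5.53, SE 0.94, edgeR adjusted p 0.00362). It is 1 of the 11 microglia markers, whose summed level was 293, 781, 648, 456 and 1318 CPM early and 3811, 3407, 1054 and 968 at D10, with 5 of the 9 tested higher at D10 and none lower. P2ry12, the purinergic receptor that defines resting microglia, was at 3.71 to 8.11 CPM early and 18.1 to 55.5 at D10 (2.44, edgeR adjusted p 0.00633), and Tmem119 at 4.61 to 20.8 and 27.0 to 172 (2.34, 0.011). Sall1, a microglial transcription factor, had 11 UMIs early (mean 0.147 CPM) and 5 at D10 (mean 1.77 CPM). Slc2a5 had 7 early and 0 at D10. Neither passed the expression filter. With the cells of cluster 3 left out, 393 genes were higher (3.61%) and 466 lower (4.29%), and the change of Gpr34 was 5.31 (edgeR adjusted p 0.007), of Tmem176b 3.66 (0.0016) and of Apoc4 3.80 (0.013).

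Ighm, the immunoglobulin mu heavy chain, and Cd79b, the signalling chain of the B cell receptor, were among the 12 largest rises. Cd79b was at 1.21, 0, 2.17, 2.64 and 4.40 CPM early and at 19.6, 19.1, 25.5 and 45.9 at D10 (3.45, SE 0.51, edgeR adjusted p 0.00116). Ighm was at 2.88 to 26.1 and 48.1 to 198 (3.85, edgeR adjusted p 0.0112). Among other B cell markers, Cd79a and Ms4a1 had no UMI in any D10 macrophage and Ebf1 had 3. Spn, sialophorin, a leukocyte surface protein of patrolling monocytes, rose from 0 to 13.1 CPM to 22.4 to 69.3 (3.04, edgeR adjusted p 0.00837).

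The remaining large rises were mostly highest in the 2 mixed D10 libraries. Klrb1f, a C-type lectin receptor, was at 0.345, 0, 0, 0.723 and 0.113 CPM early and at 3.36, 3.47, 33.0 and 44.8 at D10 (5.82, edgeR adjusted p 0.00606). BC035044 (14, 26, 97.6 and 91.8 CPM at D10, 5.47, 0.00291) and Igfbp4, an insulin-like growth factor binding protein (8.67, 8.66, 94.6 and 81.1, 4.47, 0.00307), were at 0 to 3.06 and 0.64 to 2.82 CPM early. Pdcd4, a translation inhibitor, was at 2.17 to 13.9 CPM early and at 45.6, 55.5, 138 and 197 (3.60, 0.00438), and Hist1h4c, a histone H4 gene, at 1.02 to 5.02 and at 5.31, 34.7, 79.6 and 43.7 (3.86, 0.00476). Klrb1f and Hist1h4c lost their calls when the cells of clusters 3 and 10 were left out (2.98, edgeR adjusted p 0.13, and 1.60, 0.20).

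The fitted changes of the 36 cell division genes tested were all positive, with a median of 2.44, and 4 passed, where 5.00% of all genes passed as higher: Aurkb (3.34, edgeR adjusted p 0.0117) and Aurka (2.88, 0.0419), mitotic kinases, Cdc20, an activator of the anaphase complex (3.40, 0.0229), and Hells, a chromatin remodeler of replicating cells (3.20, 0.016). All 4 overlapped between groups, and Cdc20 and Hells were not called without D2 mixed 2, D10 mixed 1 or D10 mixed 2, nor Aurka without these, D2 infiltrating 1 or D3 infiltrating 1. Kif15, a mitotic motor outside the list, was at 0.173 to 2.76 CPM early and at 2.80, 13.9, 51.1 and 39.5 (3.91, 0.0074). The values at D10 followed the library: Mki67, the general marker of cycling cells, was at 3.45, 34.5, 5.63, 13.2 and 21.5 CPM early and at 10.6, 78.0, 176 and 147 at D10 (2.56, SE 0.84, edgeR adjusted p 0.0647), and Top2a at 1.73 to 57.6 and 13.1 to 360 (2.84, 0.125). The 4 calls became 23 without D2 mixed 1, 18 without D10 infiltrating 1, 7 without D10 infiltrating 2 and 1 without D2 mixed 2, D10 mixed 1 or D10 mixed 2. Cluster 10 held 0.546% to 17.6% of D10 macrophages and 0.155% to 3.54% of early ones. When clusters 3 and 10 were left out none of the 26 that could then be tested passed, where 319 of all 10611 genes were higher. Without cluster 3 alone 8 were called higher, where 3.61% of all genes were.

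**Figure D3:**
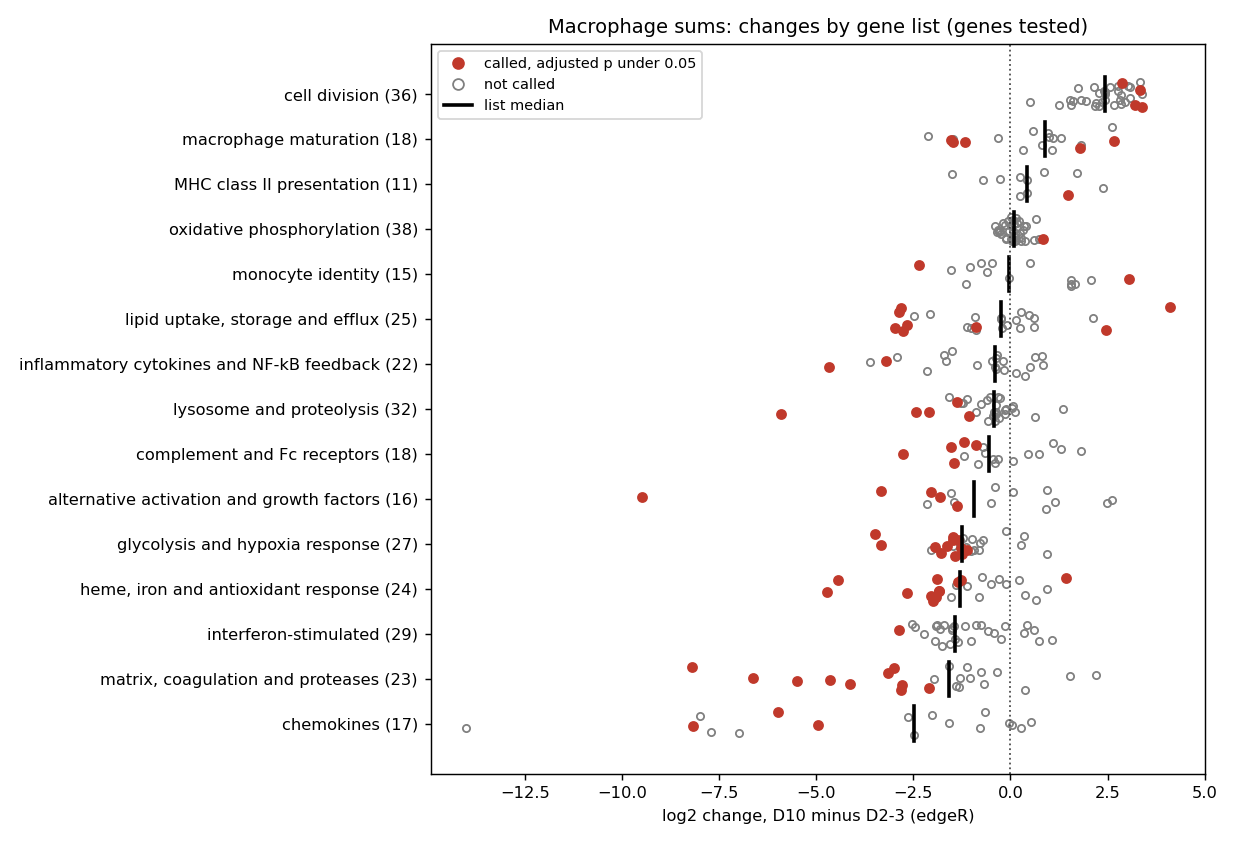
Log2 change between D10 and D2-3 (horizontal axis, negative means lower at D10) of every tested gene in 15 lists, red where called and open where not, with the list median as a bar and the median of all 8577 genes as a dotted line. All 36 cell division genes lie right of it but 4 are called; chemokine, matrix, heme and glycolysis lists lie mostly to the left.

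Genes that tell monocytes from mature macrophages passed in both directions, 2 of 15 tested in the monocyte list and 5 of 18 in the maturation list, where 10.2% of all genes passed. In the monocyte list 1 rose and 1 fell (median -0.04): Spn, above, and Clec4e, the lectin Mincle (-2.35, edgeR adjusted p 0.0442), which was called in 2 of 9 fits that left out 1 library, those without D2 mixed 1 or D3 mixed 3. The number that rose in this list was 2 without D3 infiltrating 1. The number that fell was 2 without D3 mixed 3 and 0 without D2 infiltrating 1, D2 mixed 2, D3 infiltrating 1 or any D10 library. Ly6c2, the surface marker of inflammatory monocytes, was at 105, 48.4, 158, 346 and 14.2 CPM early and at 83.6, 128, 685 and 916 at D10 (1.66, edgeR adjusted p 0.436), and Plac8 at 5.19 to 815 and 403 to 2126 (2.08, 0.317). In both the mixed D10 libraries were highest of all 9.

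In the maturation list 2 of 18 rose and 3 fell (median 0.89). With the infiltrating libraries alone 7 rose and none fell (1.40% and 1.69% of all genes). With the mixed libraries alone none rose and 4 fell (6.21% and 4.91%). Those that fell included Fcgr1, the high-affinity IgG receptor, from 193 to 597 CPM to 88.6 to 204 (-1.54, edgeR adjusted p 0.0192, lost without D2 mixed 2, D10 mixed 1 or D10 mixed 2), and Stab1, a scavenger receptor, from 143 to 206 to 30.0 to 145 (-1.17, 0.0398). Cd81, a tetraspanin, rose from 10.6 to 37.5 CPM to 102 to 140 (2.66, 0.0459), and Axl, a receptor for dead cells, from 13.6 to 64.4 to 39.0 to 172 (1.80, 0.0476); Cd81 was called in 1 of 9 fits that left out 1 library, without D3 mixed 3, Axl in 1, without D3 infiltrating 1, and Stab1 in 2, without D2 mixed 1 or D10 infiltrating 1. Without D3 mixed 3 the number that rose was 4, without D3 infiltrating 1 it was 2 and without any other single library 0; the number that fell was 1 without D2 mixed 2, D10 mixed 1 or D10 mixed 2. C1qa, a chain of complement C1q, was at 242, 438, 554, 512 and 2846 CPM early and at 5268, 4185, 1368 and 1385 at D10 (1.80, SE 0.77, edgeR adjusted p 0.146); without D3 mixed 3 its change was 2.81 and passed (0.0123). Mrc1, the mannose receptor, had 5.76 to 34.2 and 2.13 to 7.51 CPM (-2.11, 0.0647).

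Complement and Fc receptors fell in 5 of 18 tested cases and none rose (median -0.55), where 5.25% of all genes fell and 5.00% rose. C5ar1, the receptor for the complement fragment C5a, was at 582, 359, 390, 344 and 141 CPM early and at 81.1, 43.3, 46.6 and 29.9 at D10 (-2.76, SE 0.36, edgeR adjusted p 0.000629). Cd93, a receptor linked to uptake of dead cells, fell from 159 to 212 CPM to 47.0 to 84.5 (-1.46, 0.018), and Fcgr4, an activating Fc receptor, from 57.6 to 98.4 to 22.4 to 60.7 (-1.19, 0.0223). Cd93 lost its call without each of D2 mixed 2, D10 mixed 1 and D10 mixed 2, and Fcgr4 without each of the last 2. The 5 became 2 without D2 mixed 2 and 1 without D10 mixed 1 or D10 mixed 2. Without D3 mixed 3, 3 members were called higher.

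In the cytokine list 2 of 22 tested genes passed, in the interferon list 1 of 29 and in the antigen presentation list 1 of 11, where 10.2% of all genes passed. Of the cytokine and NF-kB genes 2 fell and none rose (median -0.39): Il1rn, the interleukin 1 receptor antagonist, from 6.71 to 263 CPM to 1.5 to 8.11 (-4.68, edgeR adjusted p 0.00535), and Trem1, an amplifier of inflammation, from 3.84 to 48.1 to 0 to 5.20 (-3.20, 0.0206, lost without D10 infiltrating 1, D10 mixed 1 or D10 mixed 2). Il1b had 0 to 266 CPM early and 10.7 to 49.6 at D10 (-1.65, 0.305); it was called in the infiltrating libraries alone (-3.21, 0.0171) and not in the mixed ones (1.20, 0.369). Tnf had 9.31 to 32.3 and 9.01 to 28.5 (-0.34, 0.716). Of 29 interferon-stimulated genes 1 fell, Rsad2 (-2.87, edgeR adjusted p 0.0459), which was at 515 CPM in D3 infiltrating 1 and 28.1 to 108 in the other early libraries, and the list's median was -1.43. The number called lower was 9 without D3 mixed 3, 6 without D2 mixed 1, 3 without D2 infiltrating 1 and 0 without D2 mixed 2, D3 infiltrating 1, D10 infiltrating 2, D10 mixed 1 or D10 mixed 2. Without D3 infiltrating 1, 2 interferon genes and 1 cytokine gene were called higher at D10.

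Of 11 genes of MHC class II presentation 1 rose, H2-DMa, which helps load peptides, from 43.8 to 124 CPM to 164 to 251 (1.47, SE 0.34, edgeR adjusted p 0.0152), a call lost without D2 mixed 2 or D10 infiltrating 2 (up to 0.0585). Without D3 mixed 3, 1 member was called lower. H2-Ab1, a class II chain, was at 57.6 to 972 CPM early and 236 to 1187 at D10 (0.25, 0.904), and Cd74, the invariant chain, at 431 to 3606 and 1244 to 4429 (0.24, 0.885). Of 38 oxidative phosphorylation genes 1 rose, where 5.00% of all genes rose: Ndufa6, a subunit of complex I (0.84, edgeR adjusted p 0.0323), called in 3 of 9 fits that left out 1 library (without D3 infiltrating 1, D3 mixed 3 or D10 infiltrating 1), and the median was 0.09.

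The macrophage label was checked against 9 markers, none of which was at 0 in either group. Their summed level was 14950 to 44105 CPM early and 13791 to 44677 at D10. Of these 9, all tested, 4 were lower at D10, among them Msr1 and Fcgr1, and none was higher. Of the marker lists of other cells, some had summed levels that were separate between the groups and others overlapped. Summed border macrophage markers were at 359 to 1484 CPM early and 76.8 to 187 at D10, with 2 of 7 tested lower, Pf4 and Stab1. Pf4 was most of the sum in 4 of the 5 early libraries. Mrc1 did not pass, nor did Cd163, a scavenger receptor for hemoglobin (0.95, edgeR adjusted p 0.836). Monocyte markers were at 763 to 4758 and 857 to 5618, with none of 8 called. Dendritic cell markers were at 6.91 to 27.0 and 41.4 to 72.8, with 1 of 4 tested higher, Batf3, a transcription factor (2.01, edgeR adjusted p 0.00643). Neutrophil markers overlapped, at 36.9 to 256 and 53.7 to 225, with 1 of 3 tested higher, Csf3r, the G-CSF receptor (1.25, edgeR adjusted p 0.00838). Both genes are named after their values were seen. The T or NK cell sum was at 159 to 399 and 33.0 to 58.7, nearly all of the early sum being Il7r, named here after its values were seen, which was at 158 to 399 and 10.7 to 35.8 (-3.55, edgeR adjusted p 0.00057), while Cd3e had 1 UMI early and 0 at D10. Nkg7, a granule protein of cytotoxic cells also named after its values were seen, was at 0 to 0.808 CPM early, at 0.28 and 0 in the infiltrating D10 libraries and at 21.0 and 48.0 in the mixed ones (5.81, edgeR adjusted p 0.0121). Its groups overlapped. Oligodendrocyte markers, a sign of myelin RNA, were at 73.9 to 181 and 101 to 160, and fibroblast markers at 0 to 2.93 and 0 to 3.00. Astrocyte markers were at 10.1 to 87.6 and 13.9 to 39.4 and neuron markers at 2.34 to 30.6 and 1.07 to 15.7. Endothelial markers were at 13.2 to 51.6 and 24.3 to 30.0, and red blood cell markers at 0.512 to 3.28 and 0 to 27.0. These 4 sums overlapped between the groups. No member was called of the 2 astrocyte, 3 endothelial and 1 red blood cell genes tested, and no neuron gene could be tested. Dissociation stress genes were at 765 to 1849 early and 548 to 739 at D10, with 2 of 8 tested lower. The median share of mitochondrial UMIs in macrophages was 0.212% to 1.60% early and 1.45% to 1.61% at D10. The part of these in the results was not tested.

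**Figure D4:**
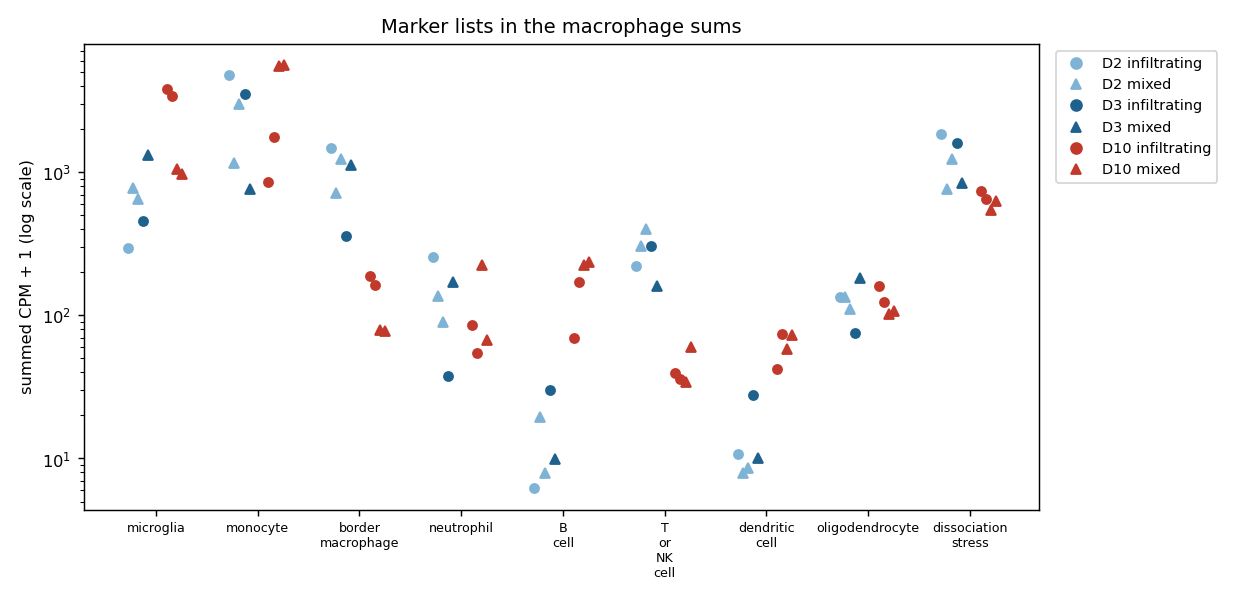
Summed CPM + 1 (log axis) of 9 marker lists in the macrophage sums, 1 point per library, D2 and D3 in blues and D10 in red, circles for infiltrating and triangles for mixed. Microglia markers were highest in the 2 infiltrating D10 libraries (3811 and 3407 CPM) and monocyte markers in the 2 mixed ones (5561 and 5618 CPM).

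Some genes changed differently in the 2 sorts. A test of the difference between the change in infiltrating and the change in mixed libraries called 156 of 10472 genes (1.49%), 87 more positive in infiltrating and 69 in mixed libraries. Prtn3, proteinase 3 of neutrophil and monocyte precursor granules, was at 4.61 to 17.1 CPM in all early libraries and at 9.23, 8.66, 1210 and 3181 at D10, so it was high in the mixed D10 libraries alone (difference -8.85, edgeR adjusted p 0.000746). Serpinb1a, an inhibitor of granule proteases, had 3.50 to 5.35 CPM early and 4.47, 8.66, 110 and 157 at D10 (-4.92, 0.00658), and Cenpa, a centromere histone, 25.0 to 54.6 and 22.4, 31.2, 206 and 186 (-3.72, 0.00658). Ass1, an enzyme of the urea cycle, had 28.8 to 145 CPM and 31.3, 27.7, 227 and 213 (-4.47, 0.0156). Cluster 10 held 15.1% and 17.6% of the macrophages in the mixed D10 libraries and 0.546% and 1.72% in the infiltrating ones. Without clusters 6, 7 and 10 the change at D10 was 2.14 for Prtn3 (edgeR adjusted p 0.139, from 6.45 and 0.0317) and 1.75 for Serpinb1a (0.166, from 3.81 and 0.0229). BC035044 and Klrb1f, both above, and Spn differed in the same sense (-5.02, -6.05 and -2.57).

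For 6 named genes the change was more positive in the infiltrating libraries. The change of Fabp5 was 0.02 in infiltrating libraries alone (edgeR adjusted p 0.99) and -4.65 in mixed ones (0.00298), and the difference was 4.48 (0.028). For Trem2 the changes were 3.02 (0.0194) and -1.62 (0.083) and the difference 4.53 (0.0242), and for Igf1 3.63 (0.0171) and -0.47 (0.65) and 4.14 (0.0352). Gpnmb (4.8, edgeR adjusted p 0.0473), Ctsd (3.64, 0.0443) and Cd63 (3.63, 0.0242) also differed between the sorts. The early mixed libraries include D3 mixed 3, and the number of genes called for the difference was 0 without D10 infiltrating 1, 2 without D10 mixed 1, 3 without D10 mixed 2, 6 without D2 infiltrating 1, 236 without D3 mixed 3 and 737 without D2 mixed 2.

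**Figure D5:**
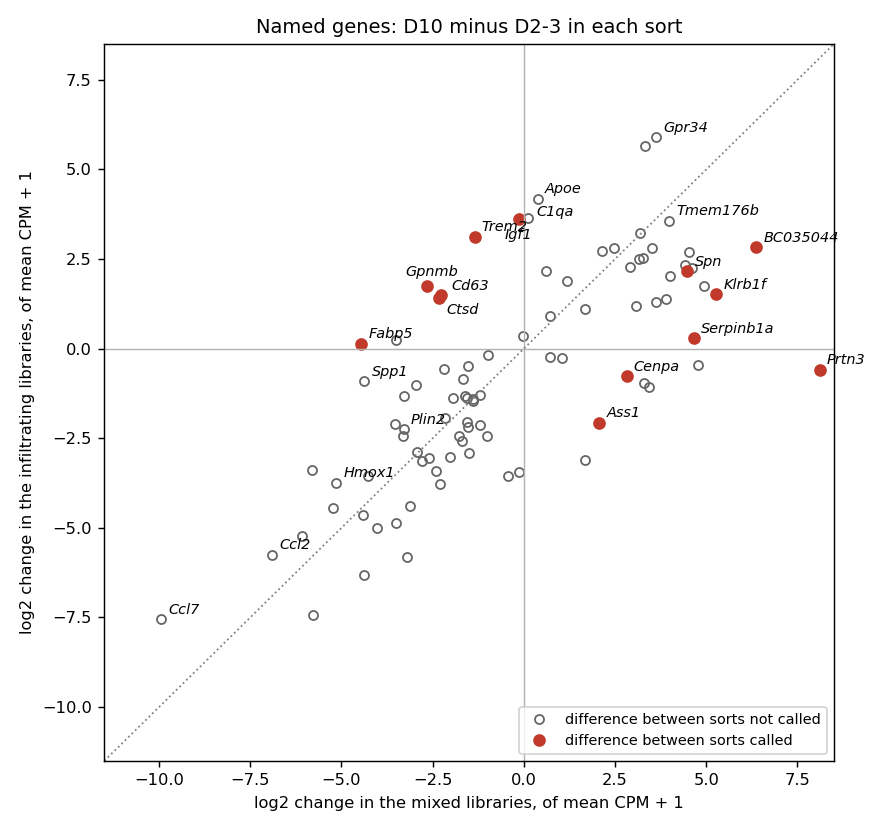
Log2 change of mean CPM + 1 between D10 and D2-3 for named genes, mixed libraries on the horizontal and infiltrating libraries on the vertical axis, red where the difference between sorts was called and the dotted line marking equal change. Ccl7, Ccl2 and Hmox1 fell in both sorts and Tmem176b and Gpr34 rose in both, while Fabp5 was lower at D10 in the mixed libraries and near 0 in the infiltrating ones, and Prtn3 was higher at D10 in the mixed libraries.

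With the infiltrating libraries alone, 2 against 2, 155 genes were higher (1.40%) and 187 lower (1.69%), and with the mixed libraries alone, 2 against 3, 464 were higher (6.21%) and 367 lower (4.91%). The heme and iron list had 6 fallers and 1 riser in infiltrating libraries and 10 and 0 in mixed ones. The matrix list had 9 and 1, and 7 and 0. The lipid list had 4 and 3, and 9 and 1, and the list of alternative activation 4 and 2, and 1 and 3. Complement and Fc receptors had 1 and 3, and 4 and 0, and cytokines 5 and 0, and 0 and 0. Cell division had 1 riser in infiltrating and 33 in mixed libraries and no fallers. Differences between the sorts in these counts were not tested.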

How the data were processed

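Members and lists were chosen with earlier results of these data known. The deposited tables hold unnormalised UMI counts, for which the submitters' processing notes name Cell Ranger 3.1.0 and GRCm38 (mm10). The authors' deposited annotation gives each cell's cluster, cell type code and pool, and the percent of its UMIs from mitochondrial genes; other steps are not given in the sources used here. Counts of cells with the macrophage code were summed per library. Genes passing edgeR's expression filter were fitted with edgeR 4.0.16 (R 4.3.3; TMM, quasi-likelihood) on time group and sex over 15 macrophage sums: 4 at D1, 5 at D2-3, 4 at D10 and 2 at D21, so all share 1 estimate of the spread; p-values were Benjamini-Hochberg adjusted over all tested genes. The sort interaction used the 9 compared libraries. D2 infiltrating 1 is labelled female but has the deposited sex code of male libraries; the label was used. A library titled infiltrating but labelled RFP+/YFP+ was left out. Named were the 12 largest called, non-overlapping changes each way with a mean of at least 20 CPM in the higher group, 30 anchor genes, up to 4 called genes per list and direction (or, where nothing was called, the 3 most abundant members) and up to 5 interaction genes. The series design text lists days 1, 3, 10 and 21, and the labels also day 2. CPM used TMM library sizes, and a zero count allows up to 3 counts. Intervals and floors cover counting error only. Coordinates are from GENCODE and promoter sequences from RefSeq, build GRCm38.p6. Doublet treatment by the authors is not given in the sources used here and no caller was run. Scripts were tested on simulated counts. DESeq2 1.42.0, other filters and scalings, and leaving out libraries or clusters were alternatives. Some genes the rule named are not reported here.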

Additional observations from a re-analysis of the deposited data

Results flagged for a closer look

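Among 184 groups of values of named genes, 18 held a library outlying by Dixon's criterion, where chance gives about 1 in 20. Among the D2-3 libraries, D3 mixed 3 was high for Apoe (37157 CPM), Apoc4 (18.8 CPM), Trem2 (2146 CPM), C1qa (2846 CPM) and Igf1 (154 CPM). D3 infiltrating 1 was high for Rsad2 (515 CPM), Axl (64.4 CPM) and BC035044 (3.06 CPM), D2 infiltrating 1 for Slc2a1 (169 CPM) and H2-DMa (124 CPM), and D2 mixed 1 for Apoc2 (4.61 CPM). Among the D10 libraries, infiltrating 1 was high for Ccl7 (9.23 CPM) and Nr1h3 (10.1 CPM), infiltrating 2 for H2-Ab1 (1187 CPM), Cd74 (4429 CPM) and H2-DMa (251 CPM), mixed 1 was the library with a count of Sdc1 (1.5 CPM), and mixed 2 was low for Cd81 (102 CPM).

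The log2 change differed between the sorts, as infiltrating minus mixed, for Prtn3 (-8.85), Klrb1f (-6.05), BC035044 (-5.02), Serpinb1a (-4.92), Ass1 (-4.47), Cenpa (-3.72) and Spn (-2.57), and in the other sense for Gpnmb (4.8), Trem2 (4.53), Fabp5 (4.48), Igf1 (4.14), Ctsd (3.64) and Cd63 (3.63). These passed edgeR's interaction test. Without D10 infiltrating 1, 0 genes passed it, with 1222 at an unadjusted p below 0.05.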

How the results depend on the processing

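The 879 genes called between D10 and D2-3 became 1356 with DESeq2 and 665 with only the 9 compared libraries (588 shared). Named genes that lost their calls with those 9 were Aurka, Axl, Clec4e, Fabp5, Hells, Hfe, Ndufa6, Prtn3, Rsad2, Serpinb1a, Stab1 and Trem1. The count was 453 against D2 alone, 58 against D3 alone (8 higher, 50 lower) and 342 with the infiltrating libraries alone. With sums thinned to 235999 UMIs it was 466, where fewer genes were tested (4713), and other causes were not tested. Leaving out 1 library gave 357 to 1145. The 156 genes of the sort interaction became 847 without the expression filter, 247 without the sex term, 463 with DESeq2 and 0 to 737 with 1 library left out. No gene was called between D3 and D2 under any alternative run. Without the expression filter the median log2 change of all genes was -0.17. Fabp5, Prtn3 and Serpinb1a were called in the fit over 15 sums. In the infiltrating libraries alone their changes (0.017, -0.95 and -0.16) had the opposite sign, and the cause was not tested. So did that of Ass1 (-2.21), called in the infiltrating libraries. So did those of named genes called in neither fit: Gpnmb (1.65), Cd63 (1.41), Ctsd (1.32), Fabp4 (0.0068), Cenpa (-0.95), Ly6c2 (-1.17), Ccr2 (-1.29), Plac8 (-0.56), H2-Ab1 (-0.52) and Cd74 (-0.36). In the mixed libraries alone, Trem2 (-1.62), Igf1 (-0.47), C1qa (-0.28), Lpl (-0.31) and Il1b (1.20), called neither there nor over the 15 sums, had the opposite sign. With the replicate block, 893 genes were called between D10 and D2-3 (745 shared with 879), 411 for the sort interaction and 0 between D3 and D2. Deviations of same-numbered libraries from their time group means had low correlations (0.11, 0.09, -0.18 and -0.04). These deviations also hold differences of sort and cluster, so whether the numbers pair libraries cannot be told. Of the alternatives added after the data were seen, leaving out D2 mixed 2 and D3 mixed 3 together gave 591, cluster 3 gave 859, clusters 3 and 10 gave 759, and D21 mixed 1 gave 873. A term for sequencing pool could not be fitted. The D10 sums of 53 to 549 cells limit what can be seen of genes below a few CPM.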
